A study of Rattus norvegicus with 9 samples.

Results

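Intermediate filament genes were followed from the embryonic rat midbrain into primary culture. The 10 genes were Nefl, Nefm, Nefh, Ina and Prph of neurons, Vim of mesenchymal and progenitor cells, Nes of neural progenitors, Gfap of astrocytes, Des of muscle and Lmna of the nuclear lamina. They were chosen by name, and all 10 had a probe set annotated to that symbol alone, among 10411 genes so represented on the array. Nefl, Ina and Lmna had 2 such probe sets each, which made 13 in all of 15866 tested; the probe set with the highest mean over the 9 arrays stood for each gene. Tissue was ventral midbrain of Rattus norvegicus at embryonic day 11 (MesE11, 3 arrays), and culture was the same tissue dissociated and kept for 9 days in vitro (MesPC, 6 arrays). No genotype, strain or treatment is named for either group. Per the labels, embryos of 4 pregnant rats were mixed into 3 groups, each group was handled apart, and its cells were cultured in duplicate, so every array reads RNA of pooled embryos. The labels' text counts 3 culture arrays where 6 are listed, and which culture came from which embryo group is not given, so the number of independent cultures behind each p is not known. Levels are given as log2 intensities and changes as the MesPC mean less the MesE11 mean ± limma's standard error (3 and 6 arrays). A gene is said to have risen or fallen where limma's p, adjusted by the Benjamini-Hochberg method over all 15866 probe sets, was under 0.05. Precision is set by the number of arrays, and the spread behind each p may be partly technical.

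Intermediate filaments are rope-like polymers built from rod-shaped proteins that pair as coiled coils, and cells of different lineages use different members. Neurons assemble the neurofilament triplet (the light, medium and heavy chains encoded by Nefl, Nefm and Nefh) together with alpha-internexin and, in peripheral and some hindbrain and spinal neurons, peripherin. Progenitor cells of the neural tube co-assemble nestin with vimentin, astrocytes add glial fibrillary acidic protein as they mature, mesenchymal cells rely on vimentin, and muscle cells on desmin. The lamins line the inside of the nuclear envelope in nearly all cells.

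In culture, all 5 neuronal filament genes fell and Vim and Nes rose. Of the 10 genes, 6 fell and 2 rose, where 22.5% of all probe sets fell and 19.7% rose; with culture arrays 1 to 3, culture arrays 4 to 6 and tissue as a random block, 5 fell and 2 rose, beside 8.50% and 11.8%. That block took a single correlation, 0.447, for all probe sets, and tissue formed a single block. It left the standard errors of Ina (0.42) and Nefm (0.25) as they were. A pass with it thus does not allow for the gap between the culture sets in such genes. All 6 culture arrays lay below all 3 tissue arrays for 6 of the 10 (23.3% of all probe sets), and 4 fell at least 2-fold (1.88%). On the brightest probe sets Nefm fell 4.14-fold, Nefl 3.01-fold, Ina 2.72-fold and Nefh 1.46-fold. The further probe sets of Ina and Nefl fell 4.33-fold and 3.90-fold, so the order depends on the probe set. Prph, which in culture lay near the array's bacterial controls, fell at least 2.97-fold, with values below the brightest of those controls raised to it, and has no place in that order. Vim rose 2.34-fold and Nes 1.86-fold. Des differed by −0.22 ± 0.07 and passed by a narrow margin (limma adjusted p = 0.0362), while Gfap and Lmna did not pass. The median difference was −1.58 over the 5 neuronal genes, which is the value of Prph, and −0.39 over all 10, against −0.06 over all genes on the array.

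The arrays fall into groups that bear on these values. Across probe sets, Pearson's r was 0.995 to 0.997 within tissue and at least 0.997 within culture arrays 1 to 3 or 4 to 6, but 0.982 to 0.987 between those sets, for which the labels name no difference. Culture arrays 4 to 6 were nearer to tissue. The split by replicate number was noticed in these data, so differences between the sets are descriptions with no test. Th, Foxa2 and Otx2, marker genes of the ventral midbrain and its dopaminergic neurons chosen after their values were known, read at least 8.19 on every array, above the 6.68 that was the highest value of 27 control probe sets for bacterial genes. Th, the enzyme that makes the dopamine precursor, ran from 11.44 to 11.66 over tissue and only from 8.19 to 8.81 over culture arrays. Th was thus lower on all 6 culture arrays, as the neuronal filament genes were. Otx2 went the other way, from 9.89 to 10.48 over tissue and from 10.86 to 11.38 over culture arrays. Foxa2 overlapped, at 9.53 to 9.67 in tissue and 9.37 to 10.17 in culture. The part of these genes' cells in the fall of the filament genes was not tested. The 3′ minus 5′ difference of the GAPDH control, a sign of RNA integrity, ranged from 0.71 to 0.77 over tissue arrays and from 0.56 to 0.73 over culture arrays, 5 of which lay below every tissue array; its part in the results was not tested.

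Promoter sequences of 7 of the 10 genes (Ina, Prph, Vim, Nes, Gfap, Des and Lmna) were found in RefSeq's table of build GRCr8. The 250 bases before the start are shown for a pair of neuronal genes that fell and for both genes that rose. Capitals mark matches to a TATA box, a GC box, a CCAAT box or an E-box on either strand, none of which overlap. All 4 lie on the plus strand and are written 5′ to 3′.
Ina, chr1:255837879-255838128: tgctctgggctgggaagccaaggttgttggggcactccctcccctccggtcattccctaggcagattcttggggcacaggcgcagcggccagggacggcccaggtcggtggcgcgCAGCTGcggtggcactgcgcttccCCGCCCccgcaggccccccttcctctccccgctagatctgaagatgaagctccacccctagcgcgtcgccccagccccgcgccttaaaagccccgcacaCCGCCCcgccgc
Prph, chr7:132097039-132097288: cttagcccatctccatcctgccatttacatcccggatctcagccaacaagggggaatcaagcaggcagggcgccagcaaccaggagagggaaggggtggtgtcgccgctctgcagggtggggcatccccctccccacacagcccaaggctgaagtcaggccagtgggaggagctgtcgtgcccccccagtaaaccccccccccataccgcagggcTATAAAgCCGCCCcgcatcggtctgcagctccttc
Vim, chr17:81577011-81577260: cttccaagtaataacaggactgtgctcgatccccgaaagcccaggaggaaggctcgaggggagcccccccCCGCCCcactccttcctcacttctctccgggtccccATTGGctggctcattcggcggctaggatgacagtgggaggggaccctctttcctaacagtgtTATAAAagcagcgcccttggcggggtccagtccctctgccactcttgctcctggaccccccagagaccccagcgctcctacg
Nes, chr2:175736338-175736587: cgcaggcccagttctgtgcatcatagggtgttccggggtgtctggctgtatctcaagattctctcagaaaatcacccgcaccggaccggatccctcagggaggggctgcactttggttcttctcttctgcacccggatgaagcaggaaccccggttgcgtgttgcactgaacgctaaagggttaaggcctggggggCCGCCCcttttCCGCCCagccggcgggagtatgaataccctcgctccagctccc
The TATA box, spelled TATAAA, stood 35 bases before the start of Prph and 82 before that of Vim, and 12.9% of the 33469 promoters of this length in the table held one. The 4 promoters shown and those of Des and Lmna held a GC box, searched as GGGCGG, 6 of the 7 matched, against 30.5% of all promoters. The CCAAT box was found in Vim (34.0% of all promoters). The E-box, searched as CAGCTG, was found in Ina and Des (12% of all promoters). Prph and Vim, which went opposite ways, both held a TATA box and a GC box. Their share of G and C was 70.8% in Ina, 64.4% in Prph, 62.4% in Vim and 60.4% in Nes, beside a median of 51.2%. A match of letters is a description of the window and not a site.

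**Figure D1:**
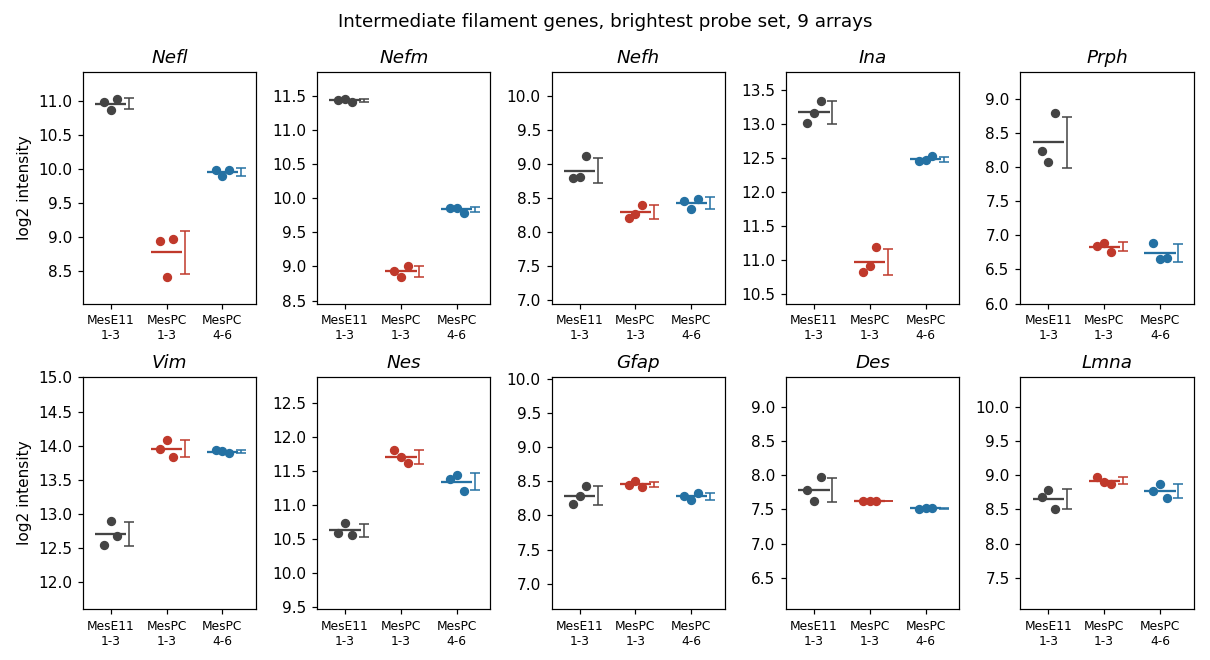
Log2 intensity (y axis) of the brightest probe set of each gene on the 3 MesE11 arrays (grey), MesPC arrays 1 to 3 (red) and MesPC arrays 4 to 6 (blue). Points are arrays, horizontal lines means and bars the standard deviation of 3 arrays; all panels span the same number of log2 units. Nefl, Nefm and Ina step down by sets, from tissue to arrays 4 to 6 and on to arrays 1 to 3, while both culture sets of Prph, Nefh and Vim lie at about one level.

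Among the neurofilament genes, Nefm, the medium chain, changed most on the brightest probe sets. It read 11.44, 11.45 and 11.41 in tissue, 8.93, 8.85 and 9.01 in culture arrays 1 to 3 and 9.86, 9.86 and 9.79 in arrays 4 to 6. The tissue arrays lay together, every culture array lay more than a log2 unit below them, and the culture sets did not overlap. The difference was −2.05 ± 0.25 (limma adjusted p = 1.8e-04), or −2.50 ± 0.06 with arrays 1 to 3 alone and −1.60 ± 0.06 with arrays 4 to 6 alone.

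Nefl, the light chain on which neurofilament assembly depends, read 10.98, 10.87 and 11.02 in tissue. In culture it read 8.95, 8.41 and 8.97 in arrays 1 to 3 and 9.99, 9.89 and 9.99 in arrays 4 to 6. Culture array 2 was the lowest, and no culture array reached the tissue values. The difference was −1.59 ± 0.34 (limma adjusted p = 0.00481), and −2.18 ± 0.13 or −1.0 ± 0.07 within the sets. The dimmer probe set of Nefl fell by more, 1.96 ± 0.38 (limma adjusted p = 0.00261), with all 6 culture arrays below tissue there too. With arrays 1 to 3 alone its change was −2.64 ± 0.08, larger than that of Nefm.

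Ina encodes alpha-internexin, which young neurons make early and build into the same filaments. It read 13.01, 13.15 and 13.34 in tissue, 10.82, 10.91 and 11.19 in culture arrays 1 to 3 and 12.45, 12.47 and 12.52 in arrays 4 to 6. The gap between the culture sets was wider than the gap between tissue and arrays 4 to 6. The difference was −1.44 ± 0.42 (limma adjusted p = 0.0218), −2.20 ± 0.11 with arrays 1 to 3 alone and −0.69 ± 0.09 with arrays 4 to 6 alone, a fall of 4.58-fold beside one of 1.61-fold. The call ended without any 1 tissue array (limma adjusted p of 0.0539, 0.0608 and 0.0831 without MesE11 replicates 1, 2 and 3), although Ina passed within either culture set. A second, dimmer probe set fell by 2.11 ± 0.42 (limma adjusted p = 0.00309), with changes of −2.86 ± 0.12 and −1.37 ± 0.07 within the sets.

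Nefh, the heavy chain that mature axons add last, moved less. It read 8.79, 8.80 and 9.11 in tissue, 8.20, 8.26 and 8.40 in culture arrays 1 to 3 and 8.45, 8.33 and 8.49 in arrays 4 to 6. All culture arrays lay below tissue, and the culture sets overlapped. The difference was −0.55 ± 0.09 (limma adjusted p = 0.00109) and of like size within either set, −0.62 ± 0.10 and −0.48 ± 0.09.

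Prph encodes peripherin, the filament protein of peripheral sensory, autonomic and motor neurons. It read 8.23, 8.07 and 8.79 in tissue, where array 3 was highest, 6.84, 6.89 and 6.76 in culture arrays 1 to 3 and 6.89, 6.65 and 6.67 in arrays 4 to 6. Every culture array lay far below tissue and the culture sets overlapped. The difference was −1.58 ± 0.14 (limma adjusted p = 1.8e-05), −1.53 ± 0.15 and −1.62 ± 0.15 within the sets. Since 2 culture values lay below 6.68, the highest bacterial control, and the others just above it, the fall is a lower bound if the culture values are background, and the likeness of the culture sets cannot be read as one of levels.

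On their brightest probe sets the neuronal genes differed in how far they fell, in a test added after the data were seen. No pair passed with the further probe sets of Nefl and Ina. Each pair of the 5 was compared by the difference of the 2 genes on each array, with an exact two-sided permutation test over the 84 ways to choose 3 of 9 arrays, in which p cannot go below 0.0119, and adjustment over the 10 pairs. On the brightest probe sets Nefh fell by less than each of the other 4 genes. Its change was 1.5 log2 units smaller than that of Nefm, 1.04 smaller than that of Nefl and 0.89 smaller than that of Ina; the size against Prph is a bound and is not given. In each of the 4 pairs all 6 culture arrays lay beyond the tissue arrays (exact permutation p of 0.0119 to 0.0238, adjusted p = 0.0476 for each). Nefm fell by 0.46 more than Nefl (exact permutation adjusted p = 0.0476). It differed from Ina by −0.61, which did not pass (exact permutation adjusted p = 0.0595), and the order of Nefm, Nefl and Ina against Prph is not determined. The test takes the 9 arrays as exchangeable, while the culture arrays form 2 sets, so these p may be too small; no version with the sets as a block was run. With arrays 1 to 3 alone Nefh fell by 1.89 less than Nefm, 1.56 less than Nefl and 1.58 less than Ina, and with arrays 4 to 6 alone by 1.12, 0.52 and 0.21 less. With the further probe sets of Nefl and Ina in place of the brightest, none of the 10 pairs passed by the exact permutation test (lowest adjusted p = 0.0595, with 4 pairs at an unadjusted p under 0.05), the Nefl and Nefm changes differed by 0.09, and Nefh still fell by 1.41 less than Nefl and 1.57 less than Ina. The pairs of Nefh with Nefm and with Prph used the same probe sets in both versions. For them only the adjustment changed (exact permutation adjusted p from 0.0476 to 0.0595). Probe sets can differ in how steeply they follow RNA level, so a difference between 2 probe sets need not be one between transcripts.

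Comparing the culture sets, 7 of the 10 genes did not overlap, 3 lower and 4 higher in arrays 1 to 3, beside 47.2% of all probe sets (21.3% lower, 25.9% higher). The share over the filament genes is therefore read by size. Ina was lower in arrays 1 to 3 than in arrays 4 to 6 by a difference of −1.51 ± 0.10 (2.85-fold), Nefl by −1.18 ± 0.12 (2.26-fold) and Nefm by −0.91 ± 0.06 (1.87-fold). The 2-fold mark in that direction was passed by 2 of the 10 genes and by 1.58% of all probe sets. Nefh and Prph differed by −0.14 ± 0.09 and 0.09 ± 0.14, with overlap. Nes was higher in arrays 1 to 3 by 0.37 ± 0.08, Gfap by 0.18 ± 0.07, Lmna by 0.15 ± 0.08 and Des by 0.11 ± 0.08, and Vim differed by 0.04 ± 0.09.

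**Figure D2:**
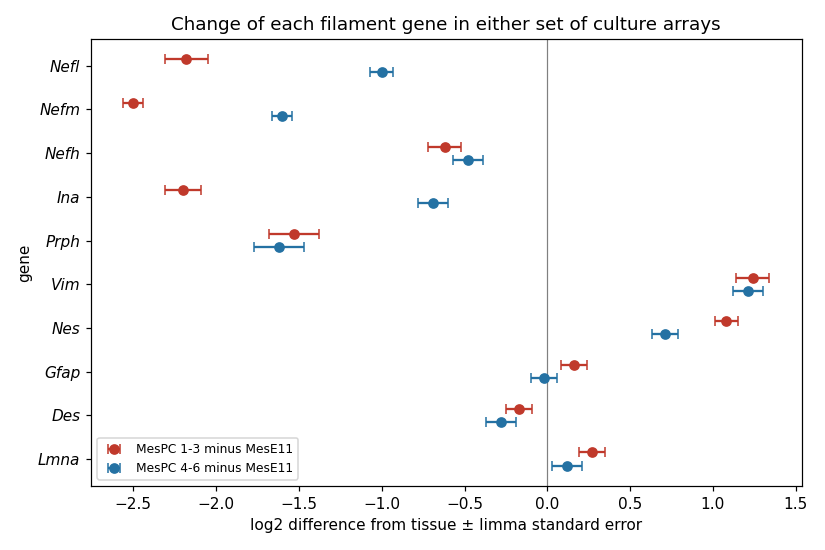
Log2 difference from the 3 tissue arrays (x axis) of each filament gene (y axis) for MesPC arrays 1 to 3 (red) and MesPC arrays 4 to 6 (blue), with limma standard errors as bars. The red and blue points of Nefl (−2.18 and −1.0), Nefm (−2.50 and −1.60) and Ina (−2.20 and −0.69) stand far apart, while those of Vim (1.24 and 1.21) and Prph (−1.53 and −1.62, near background in culture) nearly coincide.

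General neuron markers mostly had lower values in culture, as Nefl, Nefm and Ina did, though few passed the test. Of 10 measured of 12 listed (among them Tubb3, Stmn2, Dcx and Snap25), 3 fell and 0 rose, where 22.5% of all probe sets fell and 19.7% rose. The median difference was −0.82, and 9 had all culture arrays below tissue (23.3% of all probe sets). Set against tissue separately, culture arrays 1 to 3 gave 10 falls and arrays 4 to 6 gave 6. The pooled count was 6 without MesPC replicate 4, 5 or 6, 1 without MesE11 replicate 1 or 3, and 5 under median centring. Their summed intensity, on the log2 scale, ran from 15.96 to 16.05 over tissue arrays, from 14.55 to 14.75 over culture arrays 1 to 3 and from 15.73 to 15.78 over arrays 4 to 6. Without overlap, 10 of 10 were lower in arrays 1 to 3 than in 4 to 6 (21.3% of all probe sets). Those that fell were Stmn2, a microtubule regulator of growing axons (−1.16 ± 0.39), Rbfox3, the neuronal splicing factor NeuN (−1.01 ± 0.19), and Snap25, a SNARE protein of synaptic vesicle release (−0.87 ± 0.25). A further probe set of Rbfox3 did not pass (−0.22 ± 0.18), and with the random block 2 of the 10 fell (8.50% of all probe sets). The other further probe sets with means above the brightest bacterial control passed in the main fit. They were those of Stmn2 (−1.17 ± 0.41), Map2 (−0.52 ± 0.11) and Dcx (−0.57 ± 0.08). Map2 and Dcx did not pass on their brightest probe sets, so the number of falls depends on the probe set. In these bulk samples fewer neurons and less RNA per neuron cannot be told apart, and the part of the neuron markers' shift in the fall of the filament genes was not tested. Both group means of all 10 lay above the brightest bacterial control.

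Some markers of peripheral, sensory and motor neurons were lower in culture as well. Of 8 measured of 11 listed, 5 fell and 1 rose, beside 22.5% and 19.7% of all probe sets, with a median difference of −0.31. With the random block 3 fell (8.50% of all probe sets), since Isl1 (adjusted p = 0.149 with an estimated correlation) and Chat (adjusted p = 0.108) no longer passed in limma's test. Without the dimmest 40% of probe sets 2 of the 8 were left, and 0 passed. The summed intensity of all 8 ran from 11.12 to 11.25 over tissue, from 10.57 to 10.66 over culture arrays 1 to 3 and from 10.54 to 10.56 over arrays 4 to 6. Sncg, gamma synuclein, read 9.59 to 9.98 in tissue and 6.61 to 6.90 in culture, around the brightest bacterial control as Prph did, so its fall was at least 3.09 and the culture sets cannot be compared. Slc5a7, the choline transporter of cholinergic neurons (means of 6.04 in tissue and 5.21 in culture), and Chat, which makes acetylcholine (6.60 and 6.32), passed the test with means below that control in both groups, so no size is read from them. Phox2a, a transcription factor of autonomic and oculomotor neurons, fell by 0.35 ± 0.06, and Ret, the receptor kinase for the GDNF family that dopaminergic neurons also carry, rose by 1.05 ± 0.09 on its brightest probe set, but did not pass on its others (0.00 and 0.12). The part of these cells in the fall of Prph was not tested.

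Vim, the filament gene of mesenchyme and of radial glia, read 12.55, 12.90 and 12.67 in tissue. In culture it read 13.95, 14.08 and 13.83 in arrays 1 to 3 and 13.93, 13.92 and 13.89 in arrays 4 to 6. All culture arrays lay about a log2 unit above the highest tissue array, and the culture sets overlapped. The difference was 1.22 ± 0.08 (limma adjusted p = 3.2e-06), and 1.24 ± 0.10 and 1.21 ± 0.09 within the sets. Its values stood near the top of the array's range, which ended at 14.78, where a further rise may read small.

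Nes, which encodes the progenitor filament nestin, read 10.59, 10.73 and 10.56 in tissue, 11.81, 11.70 and 11.61 in culture arrays 1 to 3 and 11.38, 11.44 and 11.20 in arrays 4 to 6. All culture arrays lay above tissue, and arrays 1 to 3 lay above arrays 4 to 6. The difference was 0.90 ± 0.12 (limma adjusted p = 3.6e-04), 1.08 ± 0.07 with arrays 1 to 3 alone and 0.71 ± 0.08 with arrays 4 to 6 alone. Both Vim and Nes passed under every alternative run.

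Markers of several cell types that carry vimentin or nestin moved with these genes. For the counts of this paragraph, 19.7% of all probe sets rose and 22.5% fell. Mesenchyme and fibroblast markers rose in 10 of 12 cases and 1 fell, with a median difference of 1.93 and a summed intensity that ran from 11.76 to 11.92 over tissue, from 14.80 to 14.98 over culture arrays 1 to 3 and from 14.79 to 14.89 over arrays 4 to 6. Between the culture sets 6 of the 12 overlapped, as Vim did, among them the fibrillar collagen genes Col1a1 and Col3a1 (differences of −0.15 and −0.02). Another 5 were higher in arrays 1 to 3 without overlap (25.9% of all probe sets): Fbln1 by 0.71, Fn1 by 0.54, Dcn by 0.43, S100a4 by 0.28 and Thy1 by 0.25. Pdgfrb was lower there, by a difference of −0.22. For the next lists the summed intensity is given for tissue, culture arrays 1 to 3 and culture arrays 4 to 6 in that order. Progenitor markers rose in 5 of 7 cases and 1 fell (median 0.88; summed intensity 12.32 to 12.76, 13.92 to 14.01 and 13.65 to 13.76). Of these, Prom1, a membrane protein of neural progenitors, rose by 2.12 ± 0.10, and Hes5, a Notch target, fell by 1.25 ± 0.14. A further probe set of Hes5 did not pass (−0.21 ± 0.09). All 8 cell cycle genes listed rose (median 1.46; summed intensity 12.29 to 12.47, 13.74 to 13.86 and 13.23 to 13.40), and 7 of them were higher in culture arrays 1 to 3 than in 4 to 6, as Nes was. Endothelium markers, whose cells also carry vimentin, fell in 3 of 4 cases (median −1.07, summed intensity 10.41 to 10.64, 8.65 to 8.72 and 8.44 to 8.54). Both means of Pecam1 (6.36 in tissue and 5.74 in culture) lay below the brightest bacterial control, as did all culture values of Cldn5 (6.17 to 6.41). No size is thus read from these genes or from the median. Kdr, which lay above that control on every array, fell by 1.51 ± 0.12. Without the dimmest probe sets 0 of the 4 were left to test. Microglia and macrophage markers fell in 4 of 7 cases (median −0.27, summed intensity 10.82 to 10.90, 10.46 to 10.54 and 10.39 to 10.47). With the random block 2 of these 7 fell (8.50% of all probe sets), since C1qb (adjusted p = 0.0562 with an estimated correlation) and Itgam (adjusted p = 0.0772) no longer passed in limma's test. The part of these cells in the rise of Vim and Nes was not tested.

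**Figure D3:**
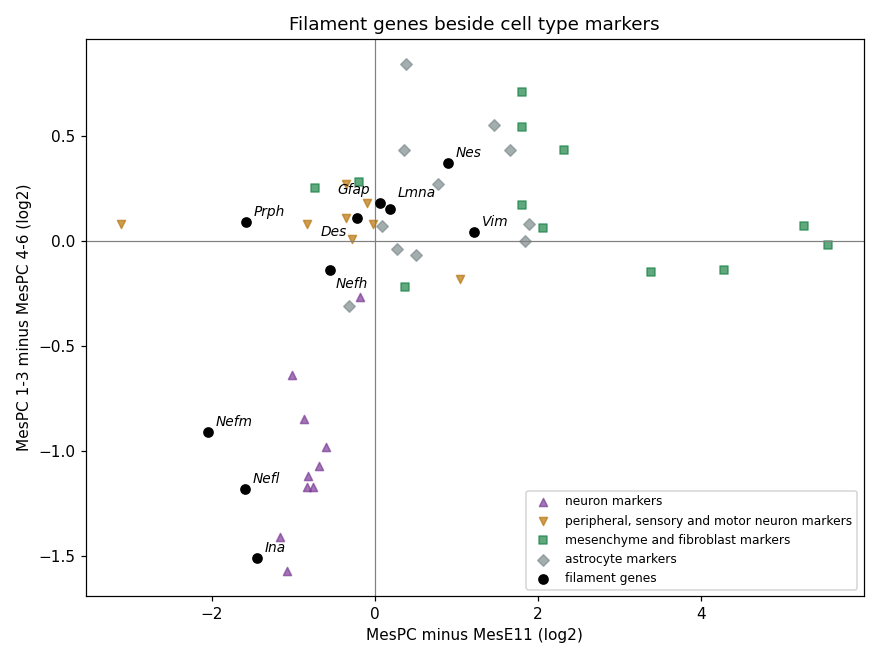
Difference between culture and tissue (x axis, MesPC minus MesE11, log2) against the difference between culture sets (y axis, MesPC 1 to 3 minus MesPC 4 to 6, log2) for the 10 filament genes (black) and for markers of neurons, of peripheral, sensory and motor neurons, of mesenchyme and of astrocytes. Nefl, Nefm and Ina lie at the lower left with the neuron markers, Prph lies left near the zero line (its culture values are near background), and Vim lies right near the zero line.

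Gfap, the filament gene of astrocytes, showed no such rise. It read 8.16, 8.28 and 8.43 in tissue, 8.44, 8.50 and 8.42 in culture arrays 1 to 3 and 8.28, 8.23 and 8.33 in arrays 4 to 6. Tissue and culture overlapped, and 2 culture arrays exceeded every tissue array. The difference was 0.07 ± 0.08 (limma adjusted p = 0.466), 0.16 ± 0.08 with arrays 1 to 3 alone and −0.02 ± 0.08 with arrays 4 to 6 alone, and the gene passed under none of the 17 alternatives run. Astrocyte markers other than Gfap rose in 7 of 11 cases and 0 fell, with a median of 0.50 and summed intensities of 14.34 to 14.69, 15.19 to 15.29 and 14.90 to 15.01 in the same order. Of all probe sets 19.7% rose and 22.5% fell. Rises included those of Mlc1, a membrane protein of astrocyte endfeet (1.89 ± 0.12), Gja1, the gap junction protein connexin 43 (1.66 ± 0.15), and Apoe, a lipid carrier (1.46 ± 0.20). Aqp4, the water channel of endfeet, read 6.18 to 6.47 in tissue, below the brightest bacterial control, so its rise was at least 1.48. Under several alternatives, among them quantile normalization, median centring and leaving out MesE11 replicate 3, 1 of the 11 fell. Slc1a3 rose by 0.78 ± 0.12 on its brightest probe set and by 1.04 ± 0.23 on a further one, but fell by 0.74 ± 0.08 on another. Glul did not pass on its brightest probe set but rose by 0.55 ± 0.16 on a further one. Of the further probe sets of Gja1, Aqp4 and Apoe, the brighter one of Gja1 differed by 0.36 ± 0.14 and did not pass. One of Aqp4, with a mean of 6.91 over the arrays, fell by 0.42 ± 0.14, and the others had means below the brightest bacterial control. Markers of the oligodendrocyte lineage gave 1 fall, that of the myelin gene Mag (−0.37 ± 0.07, or at least 0.33 with culture values raised to that control), among 6 measured (median −0.23; summed intensity 11.57 to 11.70, 12.61 to 13.08 and 10.97 to 11.37). In limma's test 6 of the 6 fell with culture arrays 4 to 6 alone, and 1 rose and 1 fell with arrays 1 to 3 alone; the pooled count was 2 without MesE11 replicate 1 or MesPC replicate 2 or 3. Olig1, a transcription factor of this lineage, read 10.41 to 10.45 in tissue. It reached 12.19 to 12.77 on culture arrays 1 to 3, whereas arrays 4 to 6 read 9.72 to 10.32, so the culture sets lay on opposite sides of tissue.

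Des, which encodes the muscle filament desmin, read 7.78, 7.62 and 7.97 in tissue, 7.62 in each of culture arrays 1 to 3 and 7.51, 7.52 and 7.52 in arrays 4 to 6. The culture values lay just under the lowest tissue value, with hardly a gap. The call of −0.22 ± 0.07 ended in 9 of the 16 alternatives run, among them the random block for the culture sets and tissue (limma adjusted p = 0.238) and leaving out MesE11 replicate 1 (−0.23, limma adjusted p = 0.0869) or 3 (−0.13, limma adjusted p = 0.162) or MesPC replicate 4, 5 or 6 (limma adjusted p of 0.0589, 0.0604 and 0.0607). Skeletal and cardiac muscle markers fell in 4 of 8 cases (median −0.20; summed intensity 10.09 to 10.19, 9.48 to 9.52 and 9.55 to 9.60), led by Acta1, skeletal muscle actin, at −1.59 ± 0.20, whereas the muscle-determining factors Myod1 and Myog did not pass, and Myod1 was no brighter than those controls. Of the 8, 2 fell with the random block (8.50% of all probe sets), under quantile normalization and without MesE11 replicate 3. In the main fit 22.5% of all probe sets fell and 19.7% rose. Among smooth muscle markers, which desmin can accompany, 2 of 5 rose (median 0.04; summed intensity 10.53 to 10.59, 11.42 to 11.53 and 10.70 to 10.87): Tagln, an actin-binding protein, by 2.21 ± 0.51 and the myosin light chain gene Myl9 by 0.80 ± 0.14. The part of muscle cells in the difference of Des was not tested.

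Lmna encodes lamins A and C, which stiffen the nucleus and are plentiful in mesenchymal cells. It read 8.68, 8.78 and 8.50 in tissue, 8.98, 8.90 and 8.88 in culture arrays 1 to 3 and 8.77, 8.87 and 8.67 in arrays 4 to 6. All arrays 1 to 3 lay above tissue, while arrays 4 to 6 overlapped it. The difference of 0.19 ± 0.08 did not pass (limma adjusted p = 0.0833), nor did the same size of difference on its dimmer probe set (limma adjusted p = 0.0719). It passed with arrays 1 to 3 alone (0.27 ± 0.08, limma adjusted p = 0.0176) and over the mean of both probe sets (0.19 ± 0.06, limma adjusted p = 0.0358). The B-type lamin genes Lmnb1 and Lmnb2 differed by 0.09 ± 0.09 and 0.05 ± 0.09 and did not pass.

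Of 26 other intermediate filament genes listed, mostly keratins of epithelia, 17 were measured; 1 rose and 4 fell, which is near the shares over all probe sets (19.7% rose and 22.5% fell) for falls and below them for rises. The median difference was −0.06, and 7 had both group means no higher than the brightest bacterial control. Krt10, a keratin of differentiating epidermis, read 6.24 to 6.68 in tissue, no higher than that control, and rose to a mean of 7.18, by at least 0.49. Krt4 fell by 0.46 ± 0.12, Krt14 by 0.31 ± 0.09 and the lens filament gene Bfsp1 by 0.25 ± 0.08; the fourth, Krt18, was below that control in both groups. With the random block only Krt10 passed (limma adjusted p = 0.0120), and without MesE11 replicate 3 the number that passed was 1. Synm, which encodes the synemin that joins vimentin and desmin filaments, did not pass (0.21 ± 0.09).

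Of 38 listed genes whose products link, modify or turn over filaments, 32 were measured. In the main fit 11 rose and 4 fell, beside 19.7% and 22.5% of all probe sets, with a median of −0.02. With the random block 7 rose and 2 fell, beside 11.8% and 8.50%. The excess of rises depended on the scaling: 8 rose and 8 fell under quantile normalization, 10 and 9 under median centring, and with culture arrays 1 to 3 alone 9 rose and 9 fell. Aurkb, a mitotic kinase that phosphorylates vimentin at division, rose by 2.50 ± 0.21, and Cryab, a small heat shock protein that chaperones desmin, vimentin and glial filaments, by 1.16 ± 0.20. Kif5a, the neuronal kinesin that moves neurofilament cargo along axons, fell by 0.79 ± 0.11, and Cdk5r1, the activator of the kinase Cdk5 that phosphorylates neurofilament tails, by 0.86 ± 0.16. A further probe set of Kif5a did not pass (−1.21 ± 0.47). Cdk5 itself did not pass (−0.32 ± 0.18). Among partners of the lamins, picked after their values were seen, Sun1 and Sun2 of the nuclear membrane rose by 0.43 ± 0.08 and 0.49 ± 0.06, Lbr, the lamin B receptor, by 0.43 ± 0.11, and Zmpste24, the protease that matures lamin A, by 0.43 ± 0.10, whereas Emd, emerin (−0.12 ± 0.06), Tmpo (−0.04), Banf1 (0.12), Syne1 (−0.28), Lemd3 (−0.12) and Icmt (0.00) did not pass. Of the other listed genes of lamin processing, Fnta rose by 0.44 ± 0.08 and Fntb fell by 0.27 ± 0.08. With the random block Sun1 (adjusted p = 0.0595 with an estimated correlation) and Fntb (adjusted p = 0.136) no longer passed in limma's test.

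The genes with the profile nearest to that of a filament gene were found by the root mean square difference between mean-centred log2 profiles over the 9 arrays, among 10347 other genes. Nearest to Nefl were Cnr1, the cannabinoid receptor of neurons, at 0.109 log2 units, Fam241b at 0.112 and Olfm3 at 0.125. Cnr1 read 11.58 as a mean in tissue, 9.34 in culture arrays 1 to 3 and 10.52 in arrays 4 to 6. Nearest to Nes were S100a10, a calcium-binding family protein that partners annexin A2, at 0.0464, Gyg1, which primes glycogen synthesis, at 0.0605, and the zinc transporter gene Slc39a1 at 0.0606. S100a10 rose by 0.93 ± 0.13 and was higher in arrays 1 to 3 by 0.37, the same difference between the sets as for Nes. Nearest to Vim were the phosphatase gene Dusp3 at 0.0893, Mfap2, which encodes a microfibril protein of the extracellular matrix, at 0.0947, and the phospholipase gene Pld1 at 0.0990. Dusp3 rose by 1.22 ± 0.05 and differed by 0.04 between the culture sets. The likeness of these values to those of the filament genes follows from how the genes were picked, over the same 9 arrays.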

How the data were processed

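RNA was isolated with Tri-Reagent, labelled with biotin and hybridized to Affymetrix arrays, per the labels' protocols. The authors deposited log2 intensities made with RMA, per the submitters' processing notes (version not given in the sources used here); scanner files were not used here. RMA brings arrays to nearly one distribution (medians 8.61 to 8.67), so differences are relative to other probe sets. The lower quartile ran from 7.15 to 7.21 over tissue and from 6.98 to 7.11 over culture arrays, so small falls of dim genes such as Des may hold that shift. After 57 control probe sets were left out, limma 3.58.1 in R 4.3.3 (lmFit, eBayes) compared MesPC with MesE11 over 15866 probe sets. The fit was tested on simulated data with 200 planted changes. It recovered 44 of 67 at 0.5 log2 units (65.7%), 64 of 67 at 1 (95.5%) and 65 of 66 at 2 (98.5%). Of 192 calls 19 were false, a larger share than the threshold on adjusted p is meant to allow. The planted changes were far fewer than the 6693 probe sets that passed in the real data. No result is given for simulated arrays that form sets, as the culture arrays do, so these shares cannot be carried over to the real data. Probe annotation gave 12783 probe sets 1 symbol and 312 several; the gene numbers of 12748 were found in RefSeq's GRCr8 table.

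The members and lists were chosen with earlier results of these data known. All 10 members are described; of each list up to 4 called genes with the largest difference and no overlap of culture and tissue are named, others where said to be picked later or as list members of interest. The 3 nearest genes were named for Nefl, Nes and Vim. The pairwise test of the neuronal genes, and the bounds that raise values to the brightest bacterial control, were added after the data were seen. Alternatives were quantile normalization again, median centring, leaving out the dimmest 40% of probe sets, an intensity trend, either culture set alone, random and replicate blocks, each array left out and averaging the probe sets of a gene. Same-numbered tissue and culture arrays did not deviate together (r = 0.0836, -0.119 and -0.111 for numbers 1 to 3), so numbers were not taken to pair them. Plots used matplotlib 3.10.9.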

Additional observations from a re-analysis of the deposited data

How the results depend on the processing

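Nefl, Nefm, Nefh, Prph, Vim and Nes kept their direction and passed limma's test under every alternative in which they were tested. Prph was among the dimmest 40% of probe sets, so it was not tested where those were left out. The number of filament genes that passed, 8, was 6 to 8 when 1 array was left out, and 7 with the random block. Gfap, which never passed, changed sign to −0.02 with culture arrays 4 to 6 alone. With the random block for the culture sets and tissue, 3227 of all probe sets passed in place of 6693, and 1 of the other filament genes and 9 of the partner genes. The other filament genes that passed, 5, were 3 under quantile normalization, 1 without the dimmest 40% of probe sets and 3 with the replicate block. When 1 array was left out the numbers were 4725 to 6557 probe sets, 1 to 6 other filament genes and 10 to 16 partner genes; the culture sets did not overlap for 7 to 9 filament genes in place of 7. In the fit with the replicate block, which rests on numbers 1 to 3 alone, Nefl changed by −2.18, Nefm by −2.50 and Ina by −2.20, Lmna passed at 0.27 (limma adjusted p = 0.0167) and Des did not at −0.17 (limma adjusted p = 0.125). That block has no basis in the labels, and the pairing by number was not borne out. Lmna also passed without MesPC replicate 6 (limma adjusted p = 0.0397). Under quantile normalization the change of Nefm less that of Ina, −0.65, passed as well (exact permutation adjusted p = 0.0397). The cause of these changes was not tested. Prph lay near the bacterial controls in culture, which limits what its fall can show.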
